A study of Mus musculus with 5 samples.

Results

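The collagen family was followed through the cell classes of mouse dorsal skin in 5 single-cell RNA libraries. Members were all genes whose symbol in the deposited gene lists reads Col, a number, a and a number, which gave 44 collagen genes of 28001 features. They comprised 11 fibrillar, 9 network, 9 FACIT, 6 beaded-filament, 4 transmembrane, 2 multiplexin, 1 anchoring-fibril and 2 other chains. All 44 had UMIs (unique molecular identifiers, 1 per captured RNA) in the unsorted libraries and all 44 were also listed for the sorted library.

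Female dorsal skin taken without sorting on postnatal day 46 gave 2 control libraries, labelled Lepr-Cre;mTmG, and 2 libraries labelled Lepr-Cre;mTmG;Smo+/-, called mutant below. A single library held GFP-positive cells sorted at postnatal day 50 from Lepr-Cre;mTmG females. Lepr-Cre is a recombinase driven from the leptin receptor locus, mTmG is a reporter in which the recombinase switches a tomato label to GFP, and all groups carried both. The design text writes the control with Smo after the reporter and gives no further detail of the Smo allele, which encodes the Hedgehog signal transducer Smoothened. Both libraries of each genotype are described as technical replicates in the labels' protocols. Each genotype p-value below therefore measures the spread between preparations and not between mice. The spread behind p-values of class marks also takes in genotype differences within a class, since libraries of both genotypes were fitted together. It does not measure the spread between mice either.

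Collagens are triple-helical matrix proteins. Types I, III and V form the banded fibrils of the dermis, types IV, VII, XVII and XVIII belong to the zone where epithelium meets dermis, type VI forms beaded filaments around cells, and FACIT collagens such as XII and XIV decorate fibril surfaces. In skin most of this matrix is made by fibroblasts. The dermal papilla, which signals to the follicle epithelium from within the hair bulb, and the dermal sheath, the contractile layer around the follicle, are specialised mesenchymal cells.

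The unsorted libraries held 10748 to 11816 barcodes and 147245343 to 171197845 UMIs, and the sorted library held 455 barcodes and 1138206 UMIs. Cells were sorted into classes by UMIs of marker genes other than collagens, and 18074 kept unsorted cells met no gate. These were 48% and 49% of kept cells in control and 59.6% and 59.4% in mutant libraries. The papilla gate took 113 and 114 control and 259 and 253 mutant cells, the sheath gate 35 and 38 against 124 and 118, and the fibroblast gate 747 and 688 against 1090 and 1137. In papilla-gated cells at least 7 of the 8 papilla markers were detected in every unsorted library, with a summed level of 2779 to 2799 CPM (counts per 1e+06 UMIs of the class) in controls and 2285 to 2411 CPM in mutants. The divisor used was slightly smaller than the true sum, as given with the processing. Unsorted libraries shared 24 to 46 barcodes with each other and none with the sorted library. Smo was at 32.2 and 35.7 CPM in control and 50.9 and 50.5 CPM in mutant papilla cells, but 3′ tags can lie outside a changed part of a gene, so this did not check the labels.

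Promoter sequences are shown for 6 collagens that set classes or genotypes apart in the results that follow: Col3a1 (fibrillar, fibroblast-rich), Col23a1 (papilla), Col28a1 (Schwann cells), and Col11a1, Col15a1 and Col6a5 (genotype changes in papilla cells). Each window holds the 250 bases upstream of the RefSeq start site in GRCm38.p6, read 5′ to 3′ on the gene's strand. Capitals mark exact matches, on either strand, to 3 motifs. These were the CCAAT box, searched by those letters, the TATA box, searched as TATAAA, and the GC box, searched as GGGCGG.
Col3a1, chr1:45311288-45311537, plus strand: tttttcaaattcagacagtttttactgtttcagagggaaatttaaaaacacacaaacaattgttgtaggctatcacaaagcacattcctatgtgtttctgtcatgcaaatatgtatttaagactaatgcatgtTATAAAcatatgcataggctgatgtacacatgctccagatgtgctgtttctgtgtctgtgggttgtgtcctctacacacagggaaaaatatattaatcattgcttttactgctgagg
Col23a1, chr11:51289670-51289919, plus strand: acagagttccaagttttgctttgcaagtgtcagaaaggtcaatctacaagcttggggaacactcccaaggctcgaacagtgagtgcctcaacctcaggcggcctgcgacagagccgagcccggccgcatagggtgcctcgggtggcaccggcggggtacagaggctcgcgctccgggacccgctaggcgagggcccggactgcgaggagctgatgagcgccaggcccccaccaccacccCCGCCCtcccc
Col28a1, chr6:8192618-8192867, minus strand: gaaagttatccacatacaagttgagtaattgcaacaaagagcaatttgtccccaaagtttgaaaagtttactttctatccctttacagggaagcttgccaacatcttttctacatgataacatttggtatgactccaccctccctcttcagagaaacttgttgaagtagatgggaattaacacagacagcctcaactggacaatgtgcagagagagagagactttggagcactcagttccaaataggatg
Col11a1, chr3:114030290-114030539, plus strand: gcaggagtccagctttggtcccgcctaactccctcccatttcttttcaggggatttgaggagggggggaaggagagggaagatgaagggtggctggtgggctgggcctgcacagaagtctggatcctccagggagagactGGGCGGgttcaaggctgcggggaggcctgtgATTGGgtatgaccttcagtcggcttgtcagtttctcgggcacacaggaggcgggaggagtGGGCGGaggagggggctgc
Col15a1, chr4:47207762-47208011, plus strand: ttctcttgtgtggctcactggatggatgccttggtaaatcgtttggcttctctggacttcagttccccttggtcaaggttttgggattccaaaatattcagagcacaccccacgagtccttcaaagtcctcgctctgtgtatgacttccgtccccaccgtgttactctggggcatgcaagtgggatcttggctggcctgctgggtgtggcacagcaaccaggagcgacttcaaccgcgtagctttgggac
Col6a5, chr9:105960644-105960893, minus strand: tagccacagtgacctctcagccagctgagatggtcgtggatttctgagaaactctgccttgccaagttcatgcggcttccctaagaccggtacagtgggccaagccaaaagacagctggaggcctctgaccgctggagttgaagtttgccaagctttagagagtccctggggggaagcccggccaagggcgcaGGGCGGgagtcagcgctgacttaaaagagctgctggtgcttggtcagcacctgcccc

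The 6 windows differed in base composition: G and C made up 35.2% of the Col3a1 window and 40.4% of the Col28a1 window, against 62.4% for Col11a1 and 66.0% for Col23a1. The Col3a1 TATA match began 117 bases upstream of the start site. The Col11a1 window held GC boxes at 19 and 110 bases and a CCAAT box at 79 bases. No listed motif was in the Col15a1 or Col28a1 window. A window of this length held the CCAAT box in 33.8%, the TATA box in 12.3% and the GC box in 33.0% of 32536 RefSeq promoters. The letters GACCACCCA, a binding motif of the GLI factors that act downstream of Smoothened, were in 0.218% of promoters and in none of the windows of the 35 collagens that had an entry.

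Fibroblasts carried most of the collagen RNA. Collagens made up 4.03% and 4.13% of all UMIs in control and 3.40% and 3.72% in mutant fibroblasts. The share was 1.92% to 2.58% in sheath cells, 0.435% to 0.544% in Schwann cells, 0.248% to 0.303% in pericytes, 0.115% to 0.127% in keratinocytes and 0.0672% to 0.0739% in T cells. Papilla cells were far below fibroblasts, at 0.352% and 0.382% of UMIs in control and 0.447% and 0.465% in mutant libraries. The 2 genotypes did not overlap in papilla cells or fibroblasts, and they lay on opposite sides: higher in mutant papilla cells and lower in mutant fibroblasts. The higher direction was not particular to papilla cells. The share was also higher without overlap in mutant T cells, keratinocytes, lymphatic, blood endothelial and myeloid cells. It was also lower without overlap in mutant sheath cells, though by a narrow gap. In Schwann cells and pericytes the genotypes overlapped.

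A collagen was taken to mark a class when it exceeded every other class at an adjusted p under 0.05 (edgeR quasi-likelihood test, the largest p over all pairwise contrasts, Benjamini-Hochberg over all genes) with a log2 difference of at least 1. Of the 44 members 28 passed the low-count filter, and 9 of these marked 1 of 10 classes, against 21% of all genes tested. Fibroblasts had 3 of them (0.753% of all genes marked this class), pericytes 2 (1.62%), and papilla (0.603%), Schwann (2.41%), T (5.51%) and keratinocyte gates (4.43%) 1 each. Sheath (0.0703%), lymphatic (1.59%), blood endothelial (0.954%) and myeloid cells (3.07%) had 0. Each level below is compared across classes within 1 gene, since 3′ tag counts are not levels per transcript length.

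**Figure D1:**
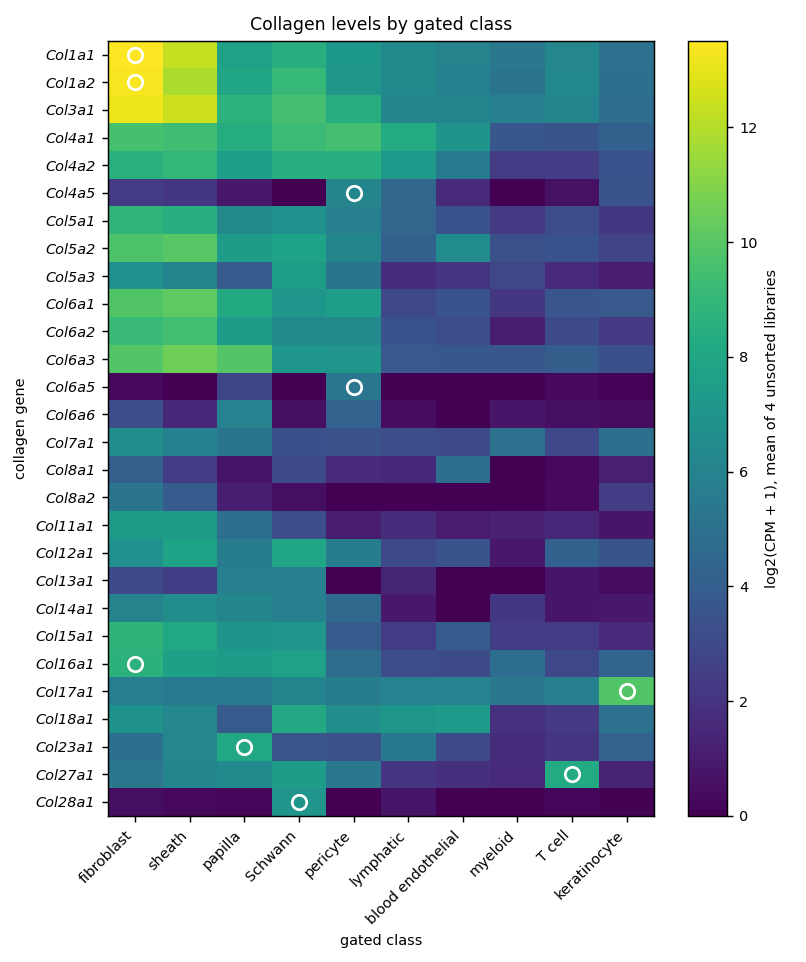
Mean level of the 28 tested collagens (rows) in 10 gated classes (columns), as log2(CPM + 1) over the 4 unsorted libraries. White rings are the 9 marking pairs; Col1a1 and Col1a2 peak in fibroblasts, while Col28a1, Col17a1 and Col6a5 have a single bright class.

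Fibroblasts were marked by Col1a1, Col1a2 and Col16a1. Col1a1, which encodes the alpha 1 chain of type I collagen, was at 11891 and 12242 CPM in control and 10619.5 and 11956 CPM in mutant fibroblasts. Sheath cells followed at 4318 to 5848 CPM, and no fibroblast library overlapped a sheath library. The log2 difference over sheath was 1.32 ± 0.19 (SE) for Col1a1 with an adjusted p of 6.95e-06 (edgeR), and 1.64 ± 0.19 for its partner chain Col1a2. Col16a1, a FACIT chain, stood only at the minimum, with a log2 difference of 1.00 ± 0.15. Col3a1, the single chain of type III collagen, was highest in fibroblasts too (7995 to 10669.5 CPM), but sheath reached 7816 CPM and the difference of 0.83 had an adjusted p of 0.0893 (edgeR).

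Sheath cells shared their collagens with fibroblasts. The highest mean for Col5a2, Col6a1, Col6a2, Col6a3, Col4a2, Col12a1 and Col14a1 was in sheath cells after scaling, with log2 differences of 0.06 to 0.51 over the next class and adjusted p-values of 1 (edgeR). Col6a3, the large chain of type VI collagen, was at 1371, 1549, 1471 and 1486 CPM in sheath cells, at 868 to 1041 CPM in fibroblasts and at 807 to 1112 CPM in papilla cells. The papilla and fibroblast ranges of Col6a3 overlapped, whereas Col1a1 was at 135 to 289 CPM in papilla cells.

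Papilla cells were marked by Col23a1 (chr11:51289920-51583918, GRCm38), a transmembrane collagen. Its level was 194 and 191 CPM in control and 323 and 347 CPM in mutant papilla cells. The next class was the sheath, at 57.1 to 103 CPM, so the classes did not overlap, and the log2 difference was 1.64 ± 0.19 with an adjusted p of 1.00e-07 (edgeR). In T cells, which should lack the gene, Col23a1 was at 2.87 to 3.43 CPM.

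Schwann cells, the glia of skin nerves, were marked by Col28a1 (chr6:7997808-8192617). Its level was 114 and 181 CPM in control and 92.0 and 129 CPM in mutant Schwann cells. In every other class it was at 1.47 CPM or less, and in pericytes, myeloid and blood endothelial cells no UMI was counted. The log2 difference over lymphatic cells, the next class, was 6.97 ± 0.51 (SE), a fitted value that rests on 2 lymphatic UMIs. Schwann cells were also highest for Col18a1 (244 to 366 CPM), the chain that gives rise to endostatin, with an adjusted p of 0.0495 (edgeR) but a log2 difference of 0.70, under the minimum.

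Pericytes, the mural cells of small vessels, were marked by Col4a5 and Col6a5. Col4a5, a basement-membrane chain, was at 67.3, 63.3, 82.3 and 71.1 CPM in pericytes and at no more than 31.6 CPM in lymphatic cells. Col6a5, a type VI chain, was at 41.4, 52.8, 20.6 and 38.8 CPM in pericytes, from 5 to 10 UMIs a library. Papilla cells came next for Col6a5, at 10.7 and 11.5 CPM in controls. Col4a5 did not pass the test with control libraries alone, and Col6a5 did not with the libraries of either genotype alone.

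Keratinocytes were marked by Col17a1, the transmembrane collagen of hemidesmosomes, at 905, 886, 932 and 905 CPM. The level of Col17a1 in every other class lay between 32.9 and 87.2 CPM, and the log2 difference over T cells was 4.08 ± 0.13 (SE). Col7a1, which forms the anchoring fibrils beneath the basement membrane, was at 28.6 to 33.0 CPM in keratinocytes and at 79.3 to 116 CPM in fibroblasts.

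T cells were marked by Col27a1, a fibrillar collagen. Its level was 377 and 384 CPM in control and 228 and 238 CPM in mutant T cells, against 143 to 208 CPM in Schwann cells. After each cell was thinned to 2000 UMIs, 41.9% and 43.3% of control and 27.02% and 26.7% of mutant T cells had a Col27a1 UMI. With plain totals in place of composition factors the log2 difference over Schwann cells fell to 0.82, and with mutant libraries alone it was 0.69, both below the minimum.

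Partner chains were compared across the 10 classes. The correlation of mean log2(CPM + 1) over the 10 classes, which share libraries and depth, was 0.996 for Col1a1 and Col1a2, 0.995 for Col4a1 and Col4a2, 0.984 for Col6a1 and Col6a2, and 0.937 for Col5a1 and Col5a2. For the basement-membrane partners Col4a3 and Col4a4 it was -0.31. Col4a3 had only 53 UMIs over these classes, with a highest class mean of 2.06 CPM. This value therefore cannot tell whether the 2 chains differ between classes. Col4a1 and Col4a2, the ubiquitous basement-membrane chains, start head to head on chromosome 8, and the annotated transcripts overlap by 22 bases. Those bases, at chr8:11312805-11312826 of GRCm38.p6, are shown on the plus strand because they belong to the 5′ ends of both genes.
Col4a1 and Col4a2 shared start: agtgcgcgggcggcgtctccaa

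Col4a1 was at 675 to 874 CPM in fibroblasts, 440 to 951 CPM in pericytes and 528 to 712 CPM in Schwann cells, ranges that overlapped. Head-to-head Col4a5 and Col4a6 on the X chromosome had a correlation of 0.837. For Col6a5 and Col6a6, neighbours on chromosome 9, it was 0.771, and both were highest in papilla cells or pericytes. Col6a5 had only 70 UMIs over these classes.

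Fibroblast subsets were set apart by the markers Pi16 and Dpp4, Tnmd and Kera, or Coch, with the fibroblasts that met none of these as a further subset; 483 mixed cells were left out. Pi16 and Dpp4 summed to 728 to 744 CPM in control and 525 to 531 CPM in mutant cells of their own subset, and to 722 to 835 and 488 to 572 CPM in the Coch subset, ranges that overlapped. Here 29 members were tested and 8 marked a subset, against 6.18% of all genes: 3 marked Pi16/Dpp4 cells (1.3% of all genes), 4 Tnmd/Kera cells (1.67%), 1 Coch cells (0.133%) and 0 the remaining subset (3.08%). Pi16/Dpp4 fibroblasts carried the most fibrillar collagen: Col1a1 was at 22807 and 25854 CPM in control and 23951 and 27449.6 CPM in mutant libraries. The other subsets ran from 4495 to 12856 CPM for Col1a1, with no overlap. Over the next subset the log2 difference was 1.46 ± 0.12 (SE) for Col1a1, 1.37 ± 0.11 for Col1a2 and 1.34 ± 0.15 for Col3a1.

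**Figure D2:**
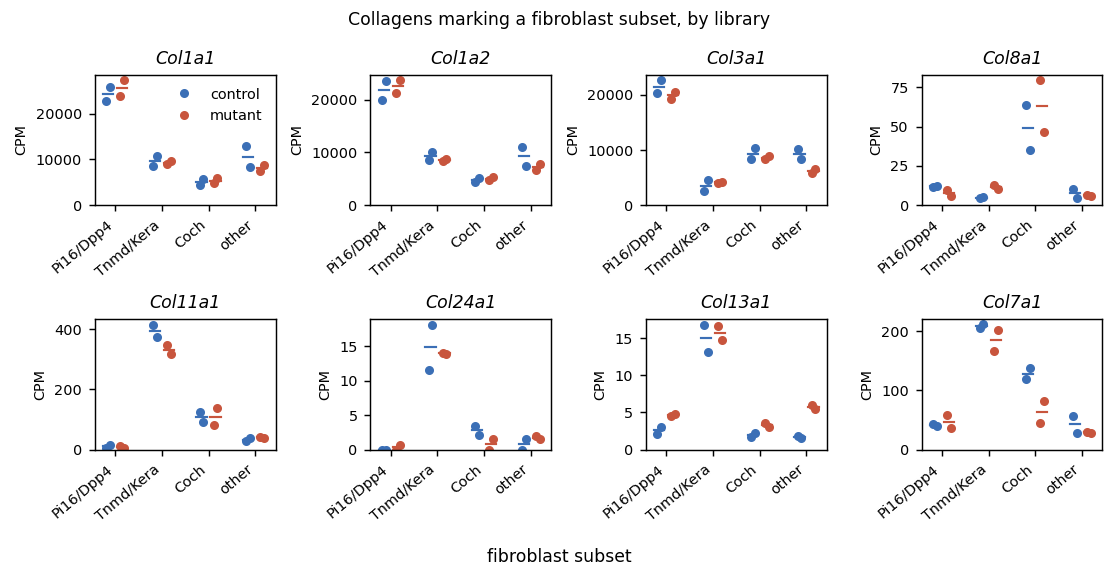
Level in CPM of the 8 collagens that marked a fibroblast subset, 1 point per library and a bar at the mean of 2 (blue, control; red, mutant). Col1a1, Col1a2 and Col3a1 stand highest in Pi16/Dpp4 cells, Col11a1, Col24a1, Col13a1 and Col7a1 in Tnmd/Kera cells, and Col8a1 in Coch cells.

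Tnmd/Kera fibroblasts, which express the tendon and cornea genes tenomodulin and keratocan, were marked by 4 collagens. Coch itself was at 10773 to 13856 CPM in these cells and at 1538 to 1665 CPM in the Coch subset. That subset holds only cells with fewer than 2 UMIs of Tnmd and Kera, whether or not they also met the Pi16/Dpp4 limit. Col11a1, a minor fibrillar chain, was at 414 and 375 CPM in control and 346 and 319 CPM in mutant Tnmd/Kera cells. It was at 81.2 to 138 CPM in Coch cells and at 5.19 to 15.5 CPM in Pi16/Dpp4 cells, so the subsets did not overlap. The log2 difference for Col11a1 over Coch cells was 1.79 ± 0.16 (SE) with an adjusted p of 1.65e-07 (edgeR). Col7a1 was at 206, 212, 167 and 203 CPM in Tnmd/Kera cells and at 44.1 to 138 CPM in Coch cells, a log2 difference of 1.15. Without mutant replicate 1 the log2 difference of Col7a1 was 0.98, below the minimum. Col24a1 and Col13a1 were rarer, at 11.6 to 18.1 CPM and 13.1 to 16.8 CPM. The share of collagen UMIs was 2.58% to 3.18% in Tnmd/Kera cells and 7.12% to 7.99% in Pi16/Dpp4 cells.

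The Coch subset was marked by Col8a1, a network-forming chain found in vessel walls and the cornea. Coch itself was higher in the Tnmd/Kera subset, so Col8a1 was not highest where Coch was. Col8a1 was at 63.7 and 35.0 CPM in control and 79.4 and 46.5 CPM in mutant cells of the Coch subset. In the other subsets it was at 13.1 CPM or less. The log2 difference over Pi16/Dpp4 cells was 2.42 ± 0.30 (SE). The subset with none of these markers had no marking collagen.

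Keratinocyte subsets were tested in a fit added after the data were seen. Of 22 members tested 7 marked a subset, against 14.3% of all genes. Bulge cells, the stem-cell region of the follicle, were marked by 6 of them (8.84% of all genes), basal cells by 1 (1.52%), and suprabasal (3.36%) and upper follicle cells (0.618%) by 0. Col8a2 was at 69.1, 48.0, 115 and 73.8 CPM in bulge cells and at 1.68 CPM or less in the other subsets, a log2 difference of 6.79 ± 0.45 (SE). Col6a1 was at 86.1 to 118 CPM in bulge and 8.05 to 10.5 CPM in basal cells, and Col18a1 was at 125 to 142 CPM against 42.3 to 44.7 CPM. Col6a2, Col5a2 and Col4a2 had log2 differences of 2.38, 2.04 and 1.05. Basal cells were marked by Col23a1, at 33.9 and 34.7 CPM in control and 27.4 and 32.4 CPM in mutant libraries, against 8.39 CPM or less elsewhere. Col17a1 was at 1373 to 1475 CPM in basal, 1175 to 1636 CPM in bulge and 157 to 191 CPM in suprabasal cells.

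The genotype comparison asked which collagens differed between control and mutant skin within each class. A collagen was called at an adjusted p under 0.05 with a log2 change of at least 1 either way. In papilla cells 24 of the 44 members were tested and 7 were called, against 3.16% of all genes tested. Of these, 5 were higher in the mutant (2.25% of all genes were) and 2 were lower (0.917%). The median log2 change was 0.45 for the tested collagens and 0.01 for all genes. A member can pass the low-count filter through the group where it is high, so the 24 are not all members.

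**Figure D3:**
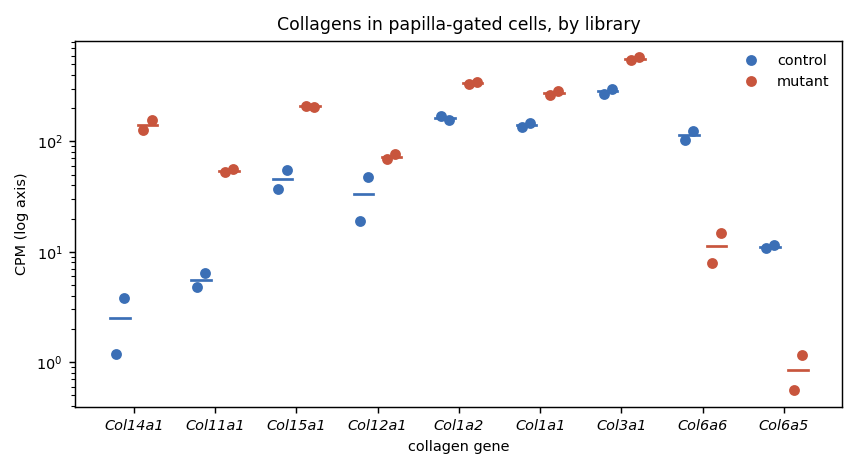
Level in CPM (log axis) of 9 collagens in papilla-gated cells, 1 point per library and a bar at the mean of 2 (blue, control; red, mutant). Col14a1 and Col11a1 show the widest upward gaps, Col6a6 and Col6a5 the downward ones, and no gene has overlapping genotypes.

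Col14a1 (chr15:55307750-55520803, GRCm38), a FACIT collagen that binds fibril surfaces, had the largest change of the 24. It was at 1.19 and 3.83 CPM in control papilla cells, from 1 and 3 UMIs, and at 127 and 156 CPM in mutant papilla cells, from 228 and 271 UMIs. The ratio of the pooled libraries was 57.4, with an exact 95% counting interval of 22.3 to 211. The log2 change was 5.77 ± 0.35 (SE, adjusted p 3.39e-07, edgeR, 2 libraries a group). After thinning to 2000 UMIs, 0 of 106 and 0 of 103 control papilla cells had a Col14a1 UMI, where the exact 95% upper bounds were 3.42% and 3.52%. The share was 16.9% of 255 and 21.8% of 248 mutant cells, and 0.176% or less in T cells. With 2 libraries a group the smallest p of the exact permutation test is 0.333, which is the value found for every share given here.

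Col11a1 (chr3:114030540-114220718) was at 4.76 and 6.38 CPM in control and 53.1 and 55.7 CPM in mutant papilla cells. The log2 change was 3.25 ± 0.33 (SE, adjusted p 2.84e-05, edgeR), and thinned shares of cells with a Col11a1 UMI were 0.943% and 1.94% against 8.24% and 10.9%. Col15a1, a multiplexin of the zone beneath basement membranes, was at 36.9 and 54.9 CPM in control and 211 and 204 CPM in mutant cells, a log2 change of 2.16 ± 0.18 (SE, adjusted p 3.68e-06, edgeR). Thinned shares of cells with a Col15a1 UMI were 8.49% and 6.80% in control and 32.2% and 29.8% in mutant papilla cells. Neither gene had overlapping genotypes. Col12a1, the second FACIT chain called, was at 19.1 and 47.2 CPM in control and 68.8 and 76.4 CPM in mutant cells, and its log2 change of 1.13 fell to 0.58 without control replicate 1.

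Both lower collagens were type VI chains of the same cluster on chromosome 9. Col6a6 (chr9:105687809-105828160) was at 102 and 125 CPM in control and 7.83 and 14.9 CPM in mutant papilla cells, a log2 change of -3.33 ± 0.25 (SE, adjusted p 1.59e-06, edgeR). Thinned shares of cells with a Col6a6 UMI were 25.5% and 22.3% in control and 1.57% and 3.23% in mutant libraries. Col6a5 was at 10.7 and 11.5 CPM in control and 0.559 and 1.15 CPM in mutant cells, a log2 change of -3.58 that rests on 18 control and 3 mutant UMIs. The other tested type VI chains did not pass: Col6a1, Col6a2 and Col6a3 had log2 changes of -0.35, -0.08 and -0.31 in papilla cells, with adjusted p-values of 0.128, 0.806 and 0.0732 (edgeR).

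Type I and III collagen stood near the fold minimum in papilla cells. Col1a2 was at 170.3 and 156 CPM in control and 329 and 342 CPM in mutant cells, a log2 change of 1.02 ± 0.13 (SE), and it was not called without control replicate 2 or without mutant replicate 2. Col1a1 and Col3a1 had log2 changes of 0.95 and 0.96, with adjusted p-values of 0.000567 and 0.00014 (edgeR). Among the basement-membrane chains Col4a2 had a log2 change of 0.67 (adjusted p 0.00697, edgeR) and Col4a1 one of 0.32 (adjusted p 0.148, edgeR). The papilla-marking Col23a1 had a log2 change of 0.78, and Col27a1 one of -0.82, both with an adjusted p under 0.05 but below the minimum.

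Other values moved with genotype in papilla-gated cells. The 7 contractile sheath markers summed to 174 and 180 CPM in control and 461 to 480 CPM in mutant papilla cells, and the 9 fibroblast markers to 934 to 963 CPM against 1067 to 1091 CPM. Coch, highest in the Tnmd/Kera fibroblasts that Col11a1 marked, was at 65.1 to 79.8 CPM in control and 141 to 157 CPM in mutant papilla cells. The 4 upper follicle keratinocyte markers summed to 149 to 156 CPM against 176 to 610 CPM. The part of these in the collagen changes was not tested. Col14a1 was at 79.9 to 134 CPM in sheath-gated cells themselves, which overlaps its mutant papilla level. Papilla cells with no UMI of the fibroblast genes Dcn and Lum numbered 157 control and 234 mutant cells. In them Col14a1 had no UMI in either control library and was at 163 and 212 CPM in the mutants, at least 59.3-fold higher than a floor of 3 UMIs over both controls. In this gate Col11a1, Col15a1, Col12a1 and Col6a6 were again called, with log2 changes of 3.11, 2.38, 1.60 and -2.86. Without Notum among its markers the papilla gate fell from 113 and 114 to 44 and 40 control cells. Mutant cells fell less, from 259 and 253 to 192 and 178. In this gate Col14a1 had 0 and 3 control UMIs and was at 156 and 180 CPM in mutants. Col6a6 was at 80.9 and 138 CPM in control against 5.12 and 5.36 CPM in mutant libraries. Median UMIs per papilla cell in the main gate were 4594 and 4614 in control and 6468 and 6131 in mutant libraries.

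Fibroblasts showed no collagen past the minimum: 0 of 33 members were called by edgeR, against 1.17% of all genes, and 0 by DESeq2. At an unadjusted p under 0.05 there were 20, beside 22.3% of all genes. An adjusted p under 0.05 was reached by 11 of the 33 with smaller changes, 10 of them lower in the mutant, beside 6.19% of all genes, of which 422 were higher and 369 lower. These were Col8a2, Col6a2, Col18a1, Col15a1, Col6a1, Col5a2, Col16a1, Col3a1, Col5a1 and Col6a3, with log2 changes of -0.60 to -0.21 (edgeR). Col6a2 was at 667 and 656 CPM in control and 441 and 439 CPM in mutant fibroblasts. The exception was Col14a1, at 54.8 and 51.9 CPM against 77.4 and 72.1 CPM, a log2 change of 0.51. Within subsets 1 collagen was called in Pi16/Dpp4 cells (1.05% of all genes, 0.371% lower), Col8a2, at 19.7 and 23.8 CPM in control and 2.97 and 3.38 CPM in mutant cells. In Coch cells 1 was called (0.226% of all genes, 0.129% higher), Col23a1. It was at 6.70 and 6.56 CPM in control, from 4 and 3 UMIs, against 47.7 and 32.5 CPM in mutant cells. DESeq2 called neither. Tnmd/Kera cells (0 of 28, 1.21% of all genes) and the remaining subset (0 of 27, 0.395%) had none called by edgeR or DESeq2, with 6 and 14 at an unadjusted p under 0.05, beside 16.4% and 12.4% of all genes.

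Tested directly, the change in papilla cells differed from that in fibroblasts for 9 of 33 collagens, against 2.08% of all genes (1.46% higher, 0.625% lower; edgeR, class by genotype term). The differences of the log2 changes were 5.30 for Col14a1, 3.42 for Col11a1, 2.65 for Col15a1, 1.47 for Col12a1, 1.29 for Col18a1, 1.25 for Col3a1, 1.13 for Col1a2, 1.03 for Col1a1 and -3.29 for Col6a6. Both comparisons used the same 4 libraries. Sheath cells had 0 of 21 collagens called (2.45% of all genes) by edgeR and 0 by DESeq2, with 9 at an unadjusted p under 0.05, beside 17.9% of all genes. In sheath cells Col3a1 was at 6287 and 7816 CPM in control and 4121 and 4406 CPM in mutant libraries, a log2 change of -0.60, while Col11a1 had one of 0.85. The 9 fibroblast markers summed to 7833 to 9064 CPM in control and 5209 to 5364 CPM in mutant sheath cells, and their part in the sheath changes was not tested. Schwann cells (0 of 21, 0.115% of all genes), pericytes (0 of 13, 0.0731%), blood endothelial cells (0 of 7, 0%) and myeloid cells (0 of 3, 0%) had none called by edgeR or DESeq2, with 3, 2, 2 and 2 at an unadjusted p under 0.05, beside 7.55%, 9.72%, 5.36% and 8.07% of all genes.

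**Figure D4:**
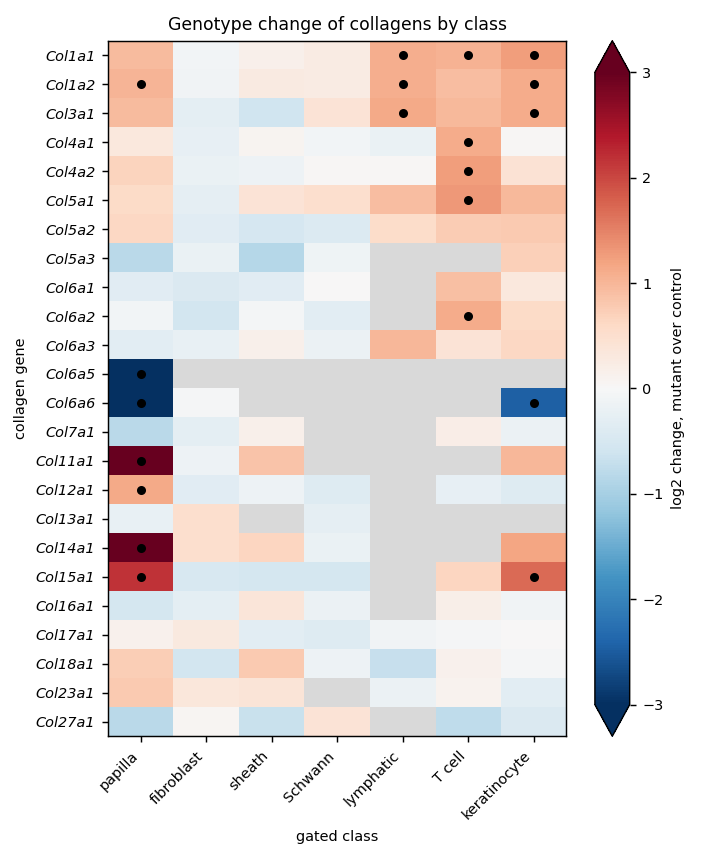
Log2 change, mutant over control, of the 24 collagens tested in papilla cells (rows) in 7 classes (columns); grey, not tested; black dots, called. The colour scale ends at 3 either way, so Col14a1, Col11a1, Col6a5 and Col6a6 in papilla cells lie beyond it, and the fibroblast column holds no dot.

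Collagens were also called in T cells, keratinocytes and lymphatic cells, where they made up 0.127% of UMIs or less. Col1a1 was called in each of these classes. In T cells 5 of 18 members were called, all higher, against 3.86% of all genes (1.82% higher): Col5a1, Col4a2, Col4a1, Col6a2 and Col1a1, with log2 changes of 1.04 to 1.31. DESeq2 called Col1a1 alone in T cells, with adjusted p-values of 0.0678 for Col5a1 and 0.067 for Col4a1 and none given for Col4a2 and Col6a2. Col1a1 was at 49.6 and 45.9 CPM in control and 106 and 98.7 CPM in mutant T cells. In keratinocytes 5 of 30 were called (1.18% of all genes, 0.909% higher and 0.268% lower): Col1a1, Col1a2, Col3a1 and Col15a1 were higher, with log2 changes of 1.26, 1.11, 1.12 and 1.70, and Col6a6 was lower, at -2.46. Col6a6 was at 0.561 and 0.645 CPM in control and 0.0716 and 0.142 CPM in mutant keratinocytes, and DESeq2 gave it no adjusted p. In lymphatic cells 3 of 12 were called (0.484% of all genes, 0.281% higher): Col1a1, Col1a2 and Col3a1, with log2 changes of 1.08, 1.09 and 1.13, and DESeq2 called 0 of these. Within keratinocyte subsets 5 of 28 were called in basal (1.2% of all genes, 0.961% higher), 2 of 20 in suprabasal (0.483%, 0.302% higher), 2 of 17 in bulge (0.961%, 0.253% higher) and 0 of 9 in upper follicle cells (0%), all of them higher. These were Col1a1, Col1a2, Col3a1, Col5a1 and Col15a1 in basal cells, and Col1a1 and Col3a1 in suprabasal and in bulge cells. In bulge cells the 9 fibroblast markers summed to 679 to 812 CPM in control and 1102 to 1259 CPM in mutant libraries, and their part in these calls was not tested.

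Papilla levels were also set against the T-cell levels of the same library. The level of Col1a1 in papilla cells was 2.71 and 3.20 times its T-cell level of the same library in controls and 2.47 and 2.93 times in mutants. For Col1a2 the ratios were 3.20, 3.08, 3.31 and 3.27, and for Col3a1 they were 6.79, 6.15, 6.63 and 5.86. In a test added after the data were seen, 5 collagens changed differently in papilla and T cells, against 2.65% of all genes (1.89% higher, 0.754% lower; edgeR). Col11a1, Col12a1 and Col15a1 had the larger change in papilla cells, with differences of the log2 changes of 3.42, 1.43 and 1.56, and Col6a1 and Col6a2 had the smaller one, at -1.20 and -1.15. Col14a1, Col6a6 and Col6a5, called for genotype in papilla cells, were not among these 5, which does not show that they changed alike in T cells. For Col1a1, Col1a2 and Col3a1 the differences were -0.05 ± 0.18, 0.15 ± 0.17 and 0.03 ± 0.17 (SE), which did not pass the test. Gated fibroblasts were 747 of 8102 and 688 of 8241 kept cells in control and 1090 of 8384 and 1137 of 8673 in mutant libraries, and the part of this or of free RNA in the low-level classes was not tested. T-cell shares with a Col1a1 UMI after thinning were 8.92% and 8.42% against 17.5% and 18.5%.

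**Figure D5:**
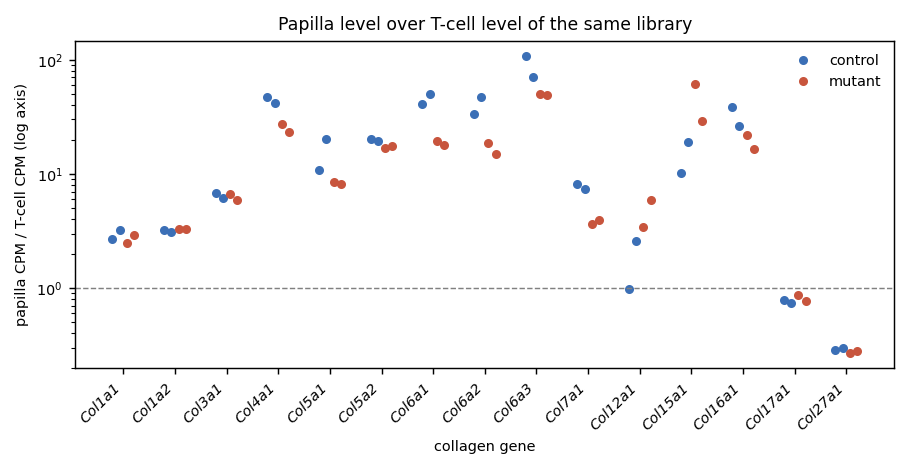
Papilla level divided by the T-cell level of the same library (log axis) for the 15 collagens with at least 10 UMIs in each class and library; 4 points per gene (blue, control; red, mutant). Col1a1, Col1a2, Col3a1, Col17a1 and Col27a1 have overlapping or nearly equal ratios in the genotypes. Col15a1 and Col12a1 lie higher in mutants. Col4a1, Col5a1, Col5a2, Col16a1, Col6a1, Col6a2 and Col6a3 lie lower.

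Genes that make, bind or cross-link collagen were followed as 3 lists. Of 10 fibril partners 8 were tested in papilla cells and 3 were higher in the mutant: Postn, which encodes periostin, with a log2 change of 2.75, and the small proteoglycans Dcn and Bgn, with 1.17 and 1.15. Of 28 processing enzymes 21 were tested there with 0 called, and of 7 collagen receptors 5 with 0 called. The list medians in papilla cells were 1.14, 0.03 and 0.04, beside 0.01 for all genes. Dcn also rose in Schwann cells, by a log2 change of 3.79 (adjusted p 0.0311, edgeR), in keratinocytes, by 1.44, and in T cells, by 1.08. In fibroblasts none of the 9 partners, 27 processing genes and 7 receptors tested was called. In sheath cells Fn1 was higher (1.04), and the proteoglycan gene Lum (-1.45) and the procollagen protease gene Adamts2 (-1.08) were lower, beside the lower summed fibroblast markers given above. Dcn and Lum are themselves fibroblast markers of the gates and helped to decide which cells entered a class. Their calls, and the partner median in papilla cells, are therefore not independent of the gating.

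The sorted GFP-positive library held 81 papilla-gated and 44 fibroblast-gated cells, from an earlier version of the 3′ chemistry and a later day, so its levels are given without comparison to the others. In its papilla cells Col3a1 was at 464 CPM (exact 95% counting interval 375 to 569), Col1a1 at 339 (264 to 430.2), Col6a1 at 314 (242 to 402), Col6a3 at 299 (229 to 385) and Col23a1 at 279 (211 to 363). Col14a1 had 3 UMIs there, and Col11a1 and Col6a5 had none, which allows up to 18.4 CPM. In its fibroblasts Col14a1 was at 560.1 CPM (390.1 to 779) and Col1a2 at 6881 CPM (6246 to 7563).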

How the data were processed

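Counts were deposited by the authors as gene by cell matrices of UMIs without normalization, made with Cell Ranger per the file headers and the submitters' processing notes, which name Cell Ranger 2.1.1 and 3.1.0, Seurat 3.2.2, Scanpy 1.6.0 and the mouse build mm10. Cells with at least 500 genes (300 in the sorted library), at most 8000 genes and at most 10.0% mitochondrial UMIs were kept, and in unsorted libraries cells with a scrublet score of 0.25 or more (scanpy 1.11.5) were left out. Classes other than keratinocytes needed at least 3 marker genes, none a collagen, and under 0.2% of UMIs in Krt5, Krt14, Krt1 and Krt10. Keratinocytes had at least 0.2% and needed no marker count. At most 1 detected marker of any other lineage was allowed. Papilla cells also needed more papilla than fibroblast UMIs, and sheath cells at least 1000 contractile-marker UMIs per 1e+06. Fibroblast subsets needed 2 UMIs of their markers (5 for Coch). Thresholds were set with the files in view. UMIs were summed per library and class, and a class needed 20 cells in each library, which melanocytes and mast cells did not reach. CPM is counts per 1e+06 UMIs of a divisor slightly smaller than that sum. It lost a small constant for genes absent from a library's gene list. For papilla cells of control replicate 1 it was 839735 in place of 843274 UMIs. For pericytes of mutant replicate 2 it was 154766 in place of 158305. CPM values and collagen shares of UMIs are therefore slightly too high, most in the smallest classes. The edgeR and DESeq2 tests and the thinned shares did not use this divisor. The sums were tested with edgeR 4.0.16 (quasi-likelihood test, TMM factors, low-count filter, Benjamini-Hochberg over all genes tested) in R 4.3.3, with library as a block for differences between classes. DESeq2 1.42.0 was an alternative. Shares used cells thinned to 2000 UMIs, with exact Clopper-Pearson intervals at 95% and an exact permutation test, two-sided (scipy 1.17.1). Intervals and floors cover counting error only. The test scripts were tested on simulated data.

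Named members were those marking a class (up to 8 a class) or called for genotype (up to 12 a comparison), and a set list of major chains. The collagens and gene lists were chosen with earlier results of these data known. Gene coordinates are those of GRCm38, and promoter windows came from RefSeq for GRCm38.p6, where 35 members had an entry. Where genes overlap, as do Col4a1 and Col4a2 or Col15a1 and an opposite-strand gene, or on the same strand Col3a1 and Gm47302, the counts are uncertain by the overlapping part.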

Additional observations from a re-analysis of the deposited data

Results flagged for a closer look

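For 9 collagens the genotype change in papilla cells differed from the change in fibroblasts of the same libraries by a test of the difference itself (edgeR, 2 libraries a genotype). The difference of the log2 changes was 5.30 for Col14a1, 3.42 for Col11a1, 2.65 for Col15a1, 1.47 for Col12a1, 1.29 for Col18a1, 1.25 for Col3a1, 1.13 for Col1a2 and 1.03 for Col1a1, and -3.29 for Col6a6. The adjusted p was 0.0307 for Col18a1 and 0.0197 for Col12a1, and at most 1.34e-05 for the other seven. The Col18a1 call was lost when any 1 library was left out, and Col12a1 ranged from 0.67 to 2.53, lost without control replicate 1 (0.67). Between papilla and T cells the differences for Col1a1, Col1a2 and Col3a1 were -0.05, 0.15 and 0.03 and did not pass the test, so their change in papilla cells was not shown to be particular to that class. Col14a1, Col18a1 and Col6a6 were not called against T cells either, which does not show that they changed alike in both classes. Mean Col14a1 was lower in T cells than in every compared class but blood endothelial cells.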

How the results depend on the processing

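No direction reversed under the alternatives run. Of 726 alternatives for 72 named results, 605 kept direction and side of the threshold, and 29 of the 72 did so under each of their alternatives. Shares of cells were scored instead by whether the genotype difference moved by less than the SD between libraries. The setting of at least 4 markers left keratinocytes and their basal and suprabasal subsets unchanged, so genotype results there had to stay the same under it. Settings in which a gene was not tested are left out of these counts. The Col6a5 change in papilla cells is among the 29 with 5 alternatives, where Col11a1 had 12. It was not tested with any library left out. Collagens marking a class numbered 19 with at least 4 markers, where sheath, pericyte, blood endothelial and myeloid cells fell under the cell minimum and were not compared. Subset marks numbered 4 in fibroblasts with control libraries alone and 4 in keratinocytes with mutant libraries alone. Calls in papilla cells ranged from 4 to 8 with 1 library left out: 5 without control replicate 1, 8 without control replicate 2 or mutant replicate 1, and 4 without mutant replicate 2. In sheath cells the range was 0 to 1, with 1 call without control replicate 1 or mutant replicate 1. The 13 calls in the other classes became 7 without the low-count filter, 5 with DESeq2, 8 with at least 4 markers and 7 to 12 with 1 library left out (7 without control replicate 1, 8 without control replicate 2). Differences between papilla and T cells ranged from 2 to 5: 3 without control replicate 1 or mutant replicate 1, and 2 without mutant replicate 2. The difference in the share of papilla cells with a Col14a1 UMI, 19.3 points, was 12.1 points at 1000 UMIs and 32.3 without thinning.

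With the replicate number as a block, 7 collagens were called in papilla cells, 0 in fibroblasts, 0 in sheath cells and 14 in the other classes. Same-numbered libraries had correlations of -0.09 to 0.05, so the numbers do not pair the libraries. Few cells limit sheath, pericyte and Col6a5 values.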
